A study of Homo sapiens with 2 samples.

Results

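The 8 genes described here encode the interleukin-1 ligands IL1A and IL1B, their antagonist IL1RN, the related ligand IL33, and the receptor chains IL1R1, IL1R2, IL1RL1 and IL1RAP. They were chosen by name, and every listed JUNB peak whose summit lay within 50 kb of the RefSeq GRCh38 span of at least 1 of them was taken. That gave 28 of 32550 untreated peaks and 22 of 25739 etoposide peaks on chromosomes 1 to 22 and X. The 8 genes are among 19974 protein-coding genes on these chromosomes. JUNB is one of the proteins that pair up to form the transcription factor AP-1. Its binding was mapped by CUT&RUN, in which a nuclease tethered to an antibody cuts chromatin around the antibody's target and the fragments set free are sequenced. The cells were IMR-90, a line of human lung fibroblasts, either without treatment or after etoposide. Etoposide is a topoisomerase II inhibitor that breaks DNA and is used to bring cultured cells into senescence. The labels give no dose, time or number of cultures. Each condition was 1 library of this single line, so differences between the conditions below have no replicate check and carry no test.

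IL-1 alpha and IL-1 beta bind the receptor IL1R1, which pairs with the accessory chain IL1RAP to signal through MYD88 to NF-kappa-B and the MAP kinases that drive AP-1. IL1R2 binds the same ligands without signalling and so acts as a decoy, and IL1RN occupies IL1R1 without recruiting IL1RAP. IL1RL1, also known as ST2, is the receptor for IL-33 and uses the same accessory chain. In senescent fibroblasts, IL-1 alpha at the cell surface is known as an upstream regulator of the secreted inflammatory factors.

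In the untreated library 7 of the 8 genes had a summit within 50 kb, where 72.0% of all protein-coding genes did. In the etoposide library 6 of the 8 did, where 62.6% of all protein-coding genes did. Both libraries had a peak near IL1A, IL1B, IL1R1, IL1R2, IL1RL1 and IL1RAP, that is 6 of 8 genes against 58.6% of all. The same 6 had a shared place, where 51.1% of all genes did. At IL1RN the only peak was untreated, as at 13.5% of all genes. IL33 had none in either, as was the case for 23.9% of all genes. The counts of genes with a peak are thus near what the whole annotation gives.

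The 28 untreated and 22 etoposide peaks lay at 34 places. Peaks of the 2 lists that overlapped by 1 bp or more were called shared. Of these, 16 were shared, 12 were untreated only and 6 were etoposide only. The shared share was 57.1% of untreated peaks (95% Wilson interval 39.1% to 73.5%), against 51.0% of the whole list. It was 72.7% of etoposide peaks (51.8% to 86.8%), against 64.8% of the whole list. Each whole list was also ordered by -log10 q and cut into 10 strength classes of equal size. Peaks of the same classes as these were shared at 50.6% and 60.5% on average. Both shares had intervals that include the values of their whole list. The intervals treat the peaks as independent, though many lay close together in the same stretches, and they are given as a description only.

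**Figure D1:**
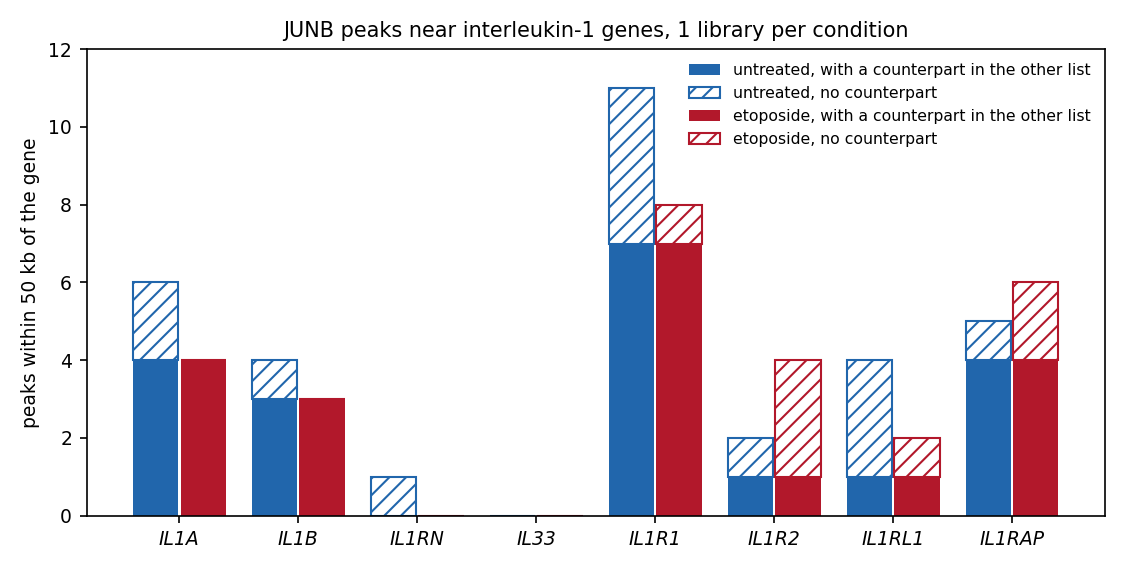
Number of JUNB peaks within 50 kb of each gene (vertical axis) in the untreated library (blue) and the etoposide library (red), with filled bars for peaks that have a counterpart in the other list and hatched bars for those that do not. IL1R1 has the most peaks, 11 and 8, IL1R2 and IL1RAP are the genes with more etoposide than untreated peaks, and IL33 has none; peaks near several of the genes are counted for each.

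Only 4 of the peaks overlapped a window at a gene start, and each was listed in 1 library alone. Start windows were taken from RefSeq on GRCh38.p14, from 250 bases before to 50 after each listed start. All 8 genes matched, with 17 windows between them. For IL1R1 and IL1RN the first listed start lay inside the gene span, and the beginning of the span had no window. An untreated peak lay over a start of IL1R1 with 19 fragments at its summit, and an etoposide peak lay over the start of IL1RAP with 8. The others were untreated peaks at neighbours, CKAP2L next to IL1A and IL18R1 next to IL1RL1. Both overlapped the bases before the neighbour's start without reaching the start itself. Thus 3 of the 12 untreated peaks without a counterpart overlapped a start window, where 10.2% of all such peaks did. For etoposide peaks without a counterpart it was 1 of 6, where 2.30% of all such peaks did. None of the 16 shared places overlapped a start window, against 4.15% of all shared untreated peaks and 3.57% of all shared etoposide peaks. In the whole table, 8.90% of start windows were overlapped by an untreated peak and 2.84% by an etoposide peak.

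The 250 bases before the IL1R1 and IL1RAP starts are shown because these are the members' own starts that a peak covered. The IL1R1 stretch is chr2:102104354-102104603 and the IL1RAP stretch is chr3:190513835-190514084, both on the plus strand and both from RefSeq, GRCh38.p14. Capitals in IL1RAP mark the 21 bases around the etoposide summit. The untreated summit at IL1R1 lay 309 bases past the start, beyond the stretch printed, and that stretch has no capitals.
IL1R1: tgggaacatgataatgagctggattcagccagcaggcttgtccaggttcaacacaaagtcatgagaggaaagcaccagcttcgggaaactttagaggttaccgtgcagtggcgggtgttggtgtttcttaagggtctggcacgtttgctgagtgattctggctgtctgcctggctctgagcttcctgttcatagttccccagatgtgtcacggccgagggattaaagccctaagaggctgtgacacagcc
IL1RAP: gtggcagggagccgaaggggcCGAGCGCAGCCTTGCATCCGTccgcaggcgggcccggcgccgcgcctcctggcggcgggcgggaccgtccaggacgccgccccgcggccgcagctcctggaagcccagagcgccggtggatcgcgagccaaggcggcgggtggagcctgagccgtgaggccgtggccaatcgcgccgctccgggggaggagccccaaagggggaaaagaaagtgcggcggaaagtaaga

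The IL1RAP stretch was 74.8% G or C with 33 CpG dinucleotides, and the IL1R1 stretch was 52.4% G or C with 6. Neither held the AP-1 letters TGANTCA, which read the same on both strands. These letters were found in 7.68% of the 34961 start windows and in 14.3% of the 3113 windows overlapped by an untreated peak. Among the members they were in 4 of 17 windows, which belong to IL1A, IL1RL1 and IL1RN. The overlapping windows of the 2 IL1A starts hold the same pair of matches. These matches are shown with 10 bases either side, the letters in capitals, because no listed peak lay over any of them. The IL1A stretches are chr2:112784489-112784515 and chr2:112784439-112784465 on the minus strand, the first match beginning 12 bases before the first start and the second 38 bases past it. The IL1RN stretch is chr2:113117738-113117764 and the IL1RL1 stretch is chr2:102337056-102337082, both on the plus strand.
IL1A, first: cgaagaagacTGACTCAggcttaagct
IL1A, second: cattggcgttTGAGTCAgcaaaggtat
IL1RN: tctgctagccTGAGTCAccctcctgga
IL1RL1: taggaggaaaTGATTCAattatttcct

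The nearest untreated summit was 9.25 kb from the first IL1A start, 40.9 kb from this IL1RN start and 18.3 kb from this IL1RL1 start. In the etoposide library these distances were 9.63, 122.9 and 24.2 kb. A match is a description of letters. The sequence of the peaks themselves was not used here.

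IL1A encodes IL-1 alpha, which is active as made and held in the cell or at its surface. It had 6 untreated and 4 etoposide peaks, none inside the gene (chromosome 2, 112773925 to 112784493, minus strand). That was 5.43 untreated and 3.62 etoposide peaks per 100 kb of its window, and 1.35% and 2.86% of all protein-coding genes had a density at least as high. The medians over all genes were 0.991 and 0.805 per 100 kb. All 4 etoposide peaks had an untreated counterpart. The height of a peak is given below as the number of fragments stacked at its summit, which the deposited fold and significance together determine.

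A set of 3 shared places, which count for IL1A and for IL1B alike, lay in the stretch between these genes, upstream of IL1A and past the end of IL1B, which is also on the minus strand. The nearest to IL1A, at 112793639 to 112793843 in the untreated list, was 9.25 kb upstream of it with 11 fragments untreated and 9 after etoposide. The next, at 112804042 to 112804263 and 19.6 kb upstream, had 15 and 8 fragments. The third, at 112812701 to 112813198, was 28.3 kb from IL1A and 16.96 kb from IL1B, with 21 and 11 fragments. An untreated peak with 16 fragments and no counterpart lay beside it, at 112812229 to 112812433, its edge 129 bp from the wide etoposide peak. The stretch between the ligand genes thus had 4 untreated and 3 etoposide peaks, with fewer fragments in the etoposide library at each of the 3 shared places. Over all shared places, 26.6% had as many or more fragments in the etoposide library, and the others had fewer.

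On the other side of IL1A, a shared place inside NT5DC4 and CKAP2L, 36.9 kb from IL1A, had 11 fragments untreated and 8 after etoposide. An untreated peak at 112764657 to 112764946, with 10 fragments, lay 9.09 kb from IL1A and 226 bases before the start of CKAP2L. Of untreated peaks in its strength class, 20.95% had a counterpart. The 4 shared places near IL1A and IL1B had 58 untreated and 36 etoposide fragments in sum, a ratio of 0.621 (95% interval from counting alone, 0.398 to 0.957). Over all 16610 shared places the median ratio was 0.778, and relative to it the ratio here was 0.798 (0.511 to 1.23). The interval includes the median of all shared places.

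**Figure D2:**
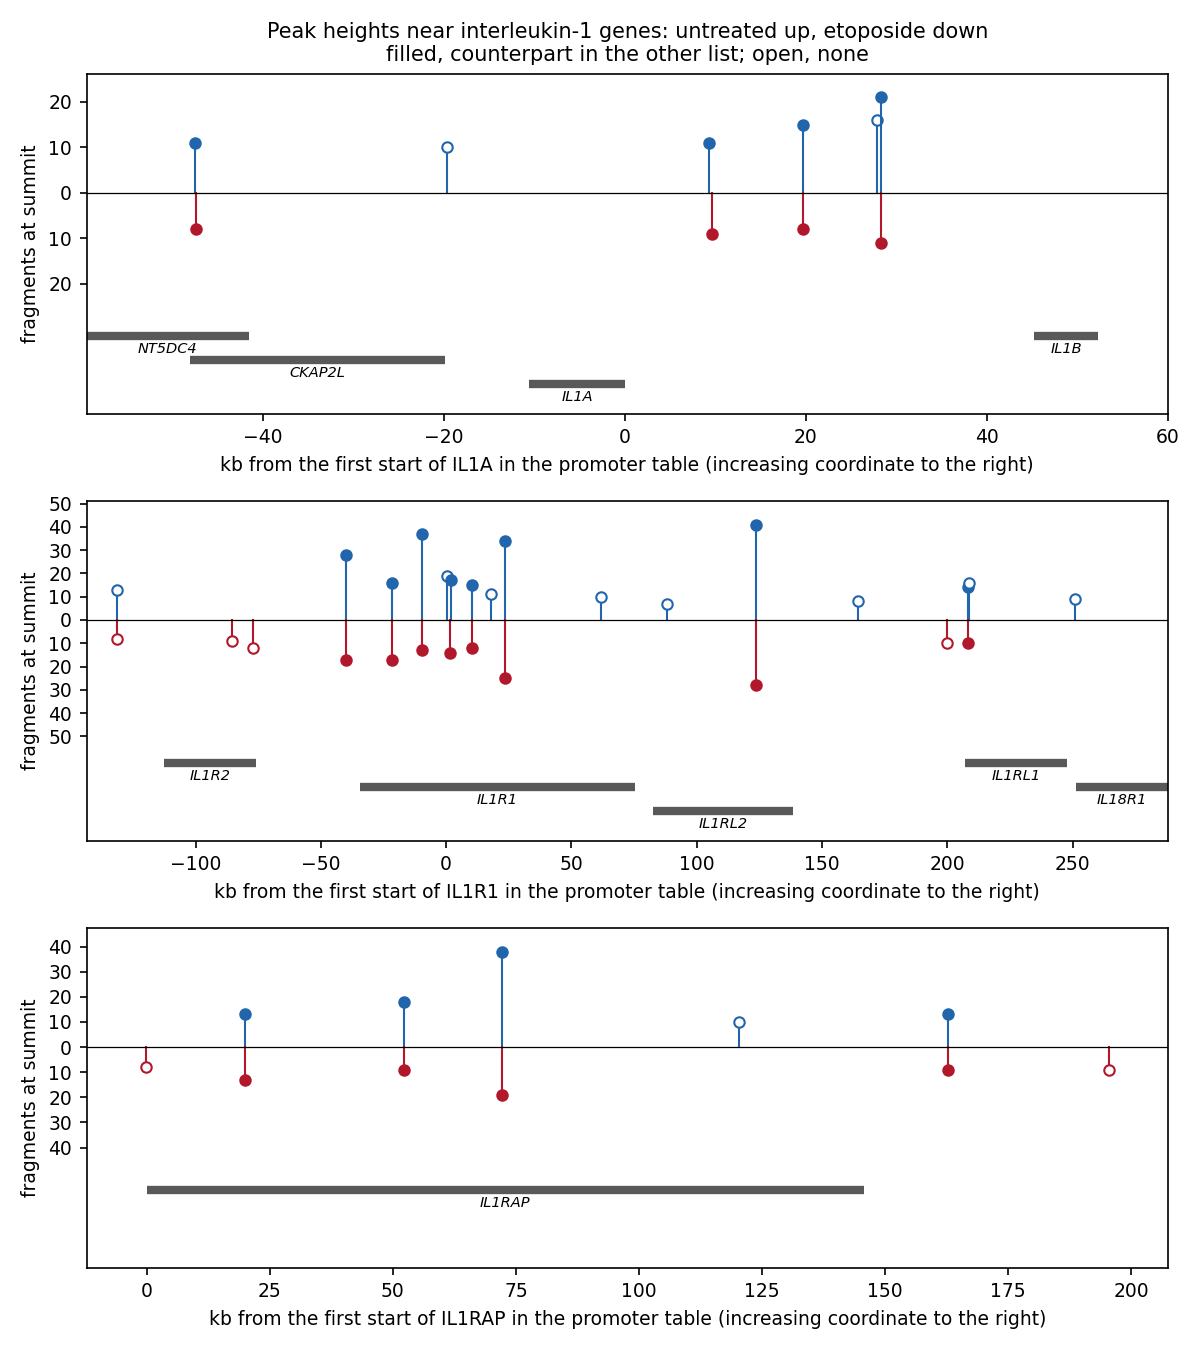
Heights of the listed peaks as fragments at the summit (vertical axis, untreated upward in blue, etoposide downward in red) against distance in kb from a start of IL1A, IL1R1 and IL1RAP (top to bottom), with protein-coding genes as grey bars. Filled points have a counterpart in the other list and open points have none; shared places stand between IL1A and IL1B, along the first part of IL1R1 and within IL1RAP, while both peaks inside IL1R2 are open and etoposide.

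IL1B encodes IL-1 beta, which is cleaved by caspase-1 before release. Its window held 4 untreated and 3 etoposide peaks, all of them also in the window of IL1A. The gene itself (chromosome 2, 112829751 to 112836779) had no summit inside it in either library. The nearest summits to its start were 24.0 kb away in both.

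From the last of those places, at the IL1B end of the stretch, no summit was listed in either library for 346 kb. This empty stretch held the genes IL1B, IL37, IL36G, IL36A, IL36B, IL36RN, IL1F10 and IL1RN, the rest of the ligand cluster on this chromosome. Of the 58266 intervals between neighbouring summits of both lists together, 2.28% were at least as long, and the median of all of them was 10.9 kb. These intervals include the short ones between the paired summits of a shared place. In the untreated list by itself, 4.51% of intervals were at least as long, and the median was 30.6 kb. In the etoposide library alone the empty stretch ran for 428 kb and also took in PSD4. There, 4.90% of intervals were at least as long, and the median was 39.9 kb. These are shares of intervals, and long intervals hold more sequence than short ones. They do not give the share of genes that lie in such stretches, which was not counted. Over all protein-coding genes, 23.9% had no peak within 50 kb in either library.

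IL1RN, the receptor antagonist (chromosome 2, 113099360 to 113134014), had 1 untreated peak, at 113158655 to 113159006. It was 24.8 kb past the end of the gene and nearest to PSD4, with 13 fragments on a local background of 0.485. It ranked 8994 of 32550, and 69.1% of untreated peaks in its strength class had a counterpart. The nearest etoposide peak to IL1RN was 106.8 kb away. IL1RN was the only one of the 8 genes with a peak in a single library.

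IL33 encodes a nuclear cytokine released from damaged cells (chromosome 9, 6215149 to 6257983). The nearest summits were 97.7 kb away in the untreated library, with 18 fragments, and 98.1 kb away in the etoposide library, with 13. These 2 belong to 1 shared place. Among 8058 genes whose windows were 0.8 to 1.2 times as wide, 20.5% had no peak in either library. The lowest height listed in either library was 5 fragments, so weaker binding near IL33 was not detectable in these lists.

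IL1R1, the signalling receptor (chromosome 2, 102070390 to 102179874, plus strand), had 11 untreated and 8 etoposide peaks. Genes with windows of like width had medians of 3 and 2. Its densities were 5.25 and 3.82 peaks per 100 kb, and 1.62% and 2.27% of all protein-coding genes were at least as dense. Inside the gene lay 8 untreated and 5 etoposide summits, and each of those 5 etoposide peaks had an untreated counterpart.

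Several of the highest peaks near the 8 genes were in this window. The peak at 102227937 to 102228443 lay 48.2 kb past IL1R1 and inside IL1RL2, the receptor gene for IL-36, with 41 untreated and 28 etoposide fragments. The peak at 102127586 to 102128159, inside IL1R1, had 34 and 25 fragments and ranked 1729 and 1501. The peak at 102094882 to 102095440, inside the gene and 9.58 kb before the start covered by an untreated peak, had 37 and 13 fragments. It ranked 1113 in the untreated list, first of the 28, and 8796 in the etoposide list.

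That place had the lowest etoposide ratio of the 16, 0.351, or 0.452 relative to the median of all shared places (0.220 to 0.870 from counting alone). It was the only one whose counting interval lay clear of the median. Of all shared places, 0.951% had a ratio as low or lower. It is named because it was the lowest, after its value was seen. Shared places of like height, that is in the same of 10 classes by the summed heights of both libraries, had a median ratio of 0.710.

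The other shared places at IL1R1 differed less between the libraries. The peak 5.80 kb before the gene, at 102064465 to 102064863, had 28 untreated and 17 etoposide fragments, and it also counts for IL1R2. Inside the gene, the place 21.5 kb before that start had 16 and 17 fragments, the place 1.77 kb past it 17 and 14, and the place 10.2 kb past it 15 and 12. The first of these was the only place of the 16 with more fragments in the etoposide library, and its counting interval of 0.649 to 2.89 relative to the median includes 1.

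The untreated list had 4 peaks in the IL1R1 window that had no counterpart. The one over the start, at 102104372 to 102105047, had 19 fragments, the most of any single-library peak near these genes, on a local background of 2.63. By -log10 q it ranked only 17864 of 32550, and 40.95% of untreated peaks in its strength class had a counterpart. The nearest etoposide peak began 1.18 kb past this peak. The others had 11, 10 and 7 fragments, and 20.95% to 32.7% of untreated peaks in their strength classes had a counterpart. Over the 7 shared places the sums were 188 untreated and 126 etoposide fragments, a relative ratio of 0.862 (0.682 to 1.09).

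IL1R2, the decoy receptor (chromosome 2, 101991960 to 102028544, plus strand), had 2 untreated and 4 etoposide peaks. Over all protein-coding genes, 12.9% had more etoposide than untreated peaks within 50 kb and 45.6% had fewer. Both summits inside the gene were in the etoposide library. The peak at 102019024 to 102019394, 20.4 kb past the first start, had 9 fragments, and the peak at 102027455 to 102027827, near the end of the gene, had 12. The nearest untreated summits were 45.3 and 37.0 kb away. Over the whole etoposide list, 50.8% and 56.1% of peaks in their strength classes had a counterpart.

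Upstream of IL1R2 each library had a peak, 18.6 kb from the gene with 13 fragments untreated and 18.8 kb from it with 8 fragments after etoposide. Their edges were 17 bp apart and their summits 285 bp apart, so they missed the rule for a shared place by little. Joining them would leave the 2 peaks inside the gene as the only difference in listing at IL1R2.

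IL1RL1, the receptor for IL-33 (chromosome 2, 102311563 to 102352356, plus strand), had 4 untreated and 2 etoposide peaks. A shared place at 102312901 to 102313114, 1.47 kb past the start, had 14 untreated and 10 etoposide fragments. A second untreated peak followed at 102313301 to 102313562 with 16 fragments, and the nearest etoposide peak ended 165 bp before it. The untreated list had another peak at 102355504 to 102355720, 3.24 kb past the gene and 199 bases before the start of IL18R1, with 9 fragments, and one 42.4 kb before the gene with 8. The etoposide list had a peak 6.996 kb before the gene with 10 fragments and no counterpart. Densities were 2.84 and 1.42 per 100 kb, and 16.5% and 29.9% of genes were at least as dense.

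IL1RAP, the accessory chain used by IL1R1 and IL1RL1 (chromosome 3, 190514085 to 190659750, plus strand), had 5 untreated and 6 etoposide peaks. Of these, 4 untreated and 3 etoposide summits were inside the gene. The highest place, at 190585779 to 190586657 and 72.1 kb past the start, had 38 untreated and 19 etoposide fragments and ranked 1335 and 5577. The place 52.3 kb past the start had 18 and 9 fragments, the place 19.9 kb past it 13 and 13, and the place 17.1 kb beyond the gene 13 and 9. In sum the 4 shared places had 82 and 50 fragments, a relative ratio of 0.784 (0.540 to 1.13).

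The peak over the IL1RAP start, at 190513820 to 190514184, was listed in the etoposide library alone. It spanned all 250 bases printed above, with its summit 219 bases before the start. Its 8 fragments on a local background of 0.718 put it at rank 23345 of 25739, in the weakest class, where 39.1% of etoposide peaks had a counterpart. The nearest untreated summit was 20.1 kb away. Another etoposide peak without counterpart lay 49.8 kb past the gene with 9 fragments, just inside the 50 kb limit. The untreated list had a peak of its own inside IL1RAP, 120.3 kb past the start, with 10 fragments.

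Across the 8 genes, 14 of the 16 shared places had fewer fragments in the etoposide library, 1 had the same number and 1 had more. Over all 16610 shared places, 26.6% had as many or more fragments in the etoposide library, and the others had fewer. Summed, the 16 places had 342 untreated and 222 etoposide fragments, a ratio of 0.649 (0.546 to 0.771). Relative to the median of all shared places this was 0.835 (0.702 to 0.991), and 11 of the 16 places lay below that median. The median of the 16 relative ratios was 0.904, where the quartiles of all shared places were 0.798 and 1.29. Shared places of like height had medians between 0.692 and 0.900, lowest for the highest peaks. The highest peaks weigh most in the sum, and the medians for their heights, 0.692 to 0.714, lie below the 0.778 used as its reference. The medians for the lowest peaks, 0.8125 to 0.900, lie above it. The sum was not set against a reference of like height. These intervals cover counting error only.

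**Figure D3:**
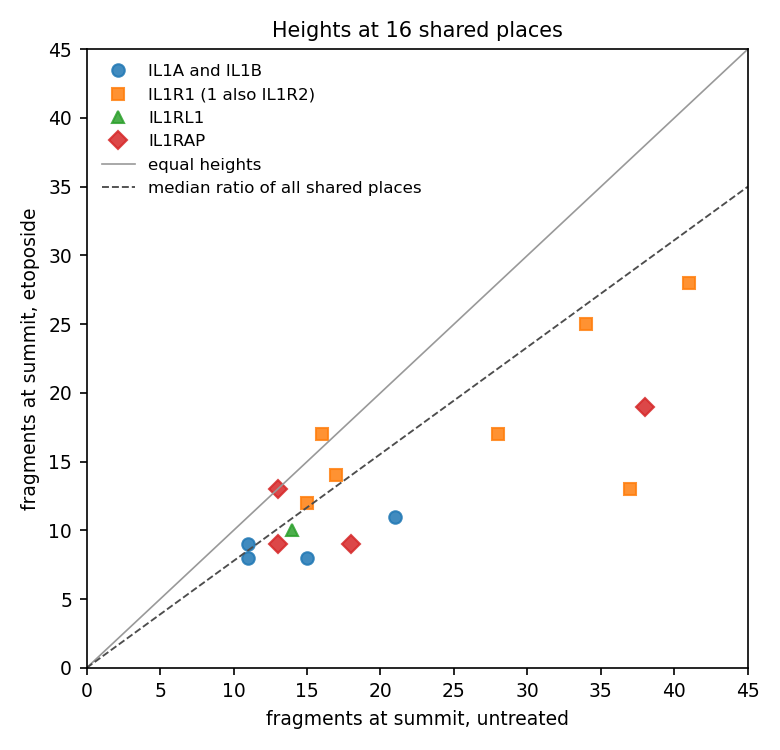
Fragments at the summit in the untreated library (horizontal axis) and the etoposide library (vertical axis) at the 16 shared places, by gene, with lines for equal heights and for the median ratio of all shared places. Of the 16 points, 14 lie below the line of equal heights and 11 below the dashed median line of 0.778.

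**Figure D4:**
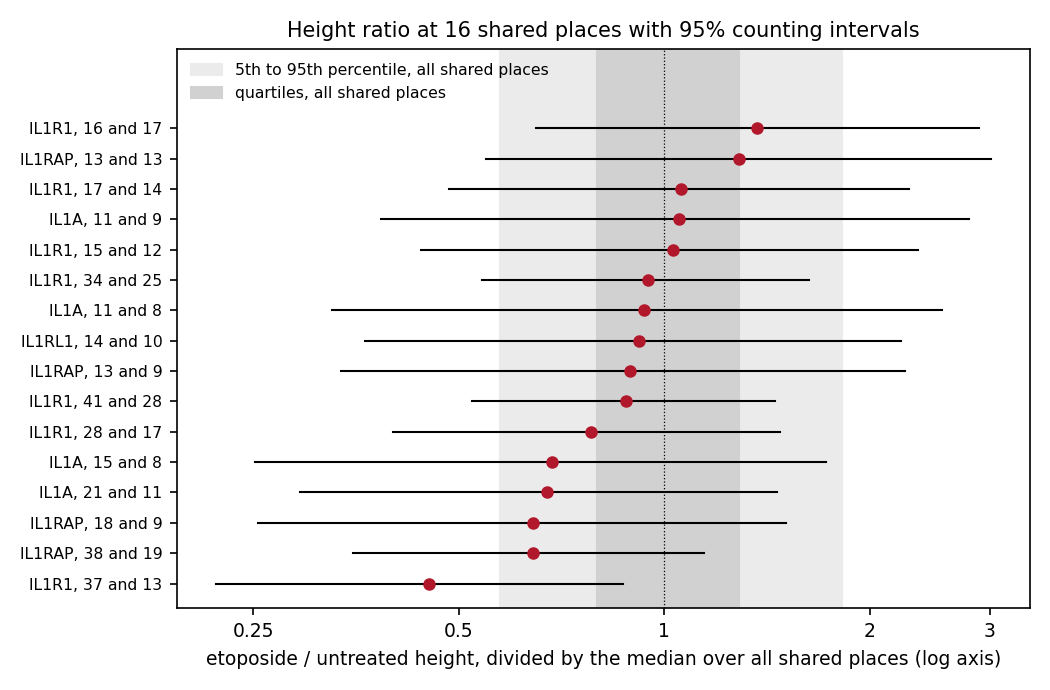
Ratio of etoposide to untreated height at each of the 16 shared places divided by the median over all shared places (points, log axis) with 95% counting intervals (lines), labelled by gene and by untreated and etoposide fragments. The grey bands span the quartiles and the 5th to 95th percentiles of all shared places; 15 intervals cross 1, and the one at IL1R1 with 37 and 13 fragments does not.

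Peaks without a counterpart were the lower ones in both lists. Untreated peaks alone had heights of 7 to 19 with a median of 10.5, and shared ones had 11 to 41 with a median of 16.5. Etoposide peaks alone had 8 to 12 with a median of 9, and shared ones had 8 to 28 with a median of 12.5. Over the whole lists the medians were 12 for untreated peaks alone and 19 for shared ones, and 10 and 14 for etoposide. By place, 9 of 16 shared, 5 of 12 untreated and 2 of 6 etoposide summits were inside 1 of the 8 genes.

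The rest of the pathway was taken from a list of 45 genes, of which 44 were found among protein-coding genes. A peak near several genes counted for each. Peaks already counted for the 8 genes were kept, as at IL1RL2 and IL18R1. Within 50 kb, untreated peaks were near 31 (70.5%) and etoposide peaks near 27 (61.4%), close to the 72.0% and 62.6% of all genes. Both libraries had a peak at 26 genes and neither at 12. The untreated library alone had one at SIGIRR, IRAK3, MAP3K7, NLRP3 and CAPN1, and the etoposide library alone at IL1RAPL2, against 13.5% and 4.05% of all genes.

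Of the 14 other family genes and receptors, 7 had no peak in either library, where 23.9% of all genes had none. These were IL18RAP and the 6 ligand-cluster genes from IL37 to IL1F10 in the empty stretch described above. The highest peaks were inside IL1RAPL1, a relative of the accessory chain, with 85 untreated and 48 etoposide fragments. Of the 16 signalling genes, untreated peaks were near 13 (81.2%) and etoposide peaks near 11 (68.8%), beside 72.0% and 62.6% of all genes. The strongest was inside IRAK2, a kinase of the MYD88 complex, with 54 and 35 fragments. IRAK3, an inhibitory relative, had untreated peaks alone, the higher with 17 fragments. Of 14 genes for processing and release, untreated peaks were near 12 (85.7%) and etoposide peaks near 10 (71.4%), beside the same shares of all genes. For CASP1, CARD16 and CASP5 the highest peak was the same shared place, with 17 untreated and 16 etoposide fragments. CAPN2, a calpain subunit of the protease family that cleaves IL-1 alpha, had the strongest of the pathway, 0.335 kb from the gene, ranking 30 and 63 with 85 and 60 fragments. NLRP1, an inflammasome sensor, had 47 and 40 fragments at a place inside the gene. NLRP3, another sensor, had a single untreated peak with 11.

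Peak lists do not measure expression, and the labelled cell type could not be checked from them. Of 8 fibroblast markers, 8 had a peak within 50 kb in both libraries, but so did 3 of 4 leukocyte, 3 of 4 epithelial and 2 of 3 endothelial markers, and 58.6% of all protein-coding genes.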

How the data were processed

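JUNB CUT&RUN peaks came as 1 list per library, 33491 untreated and 26590 etoposide peaks. The submitters' processing notes name Bowtie2, MACS2, hg38 and mm10 without roles; versions, settings and any control library are not given in the sources used here. The deposited fold is a ratio of summit signal to local background. The deposited p-value and q-value are -log10 values at the summit, and the deposited score is about 10 times -log10 q. These are the authors' own values and served only to describe or rank peaks within a list.

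Positions are GRCh38, counted from 1. Contigs, Y and the mitochondrial genome were left out. Heights are the whole number k that, with a pseudocount of 1 in the fold, gave the deposited -log10 p within 0.001, which was true of 100% of peaks. The step was tested on simulated data. Total depth is not in the files. Median heights were 15 untreated and 13 etoposide fragments, and the relative depth, read from the lowest backgrounds (0.482 and 0.377) and smallest widths (202 and 189 bp), was 0.836. Height ratios have exact conditional 95% intervals.

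Genes came from RefSeq GRCh38.p14 without exons, and groups from the treatment labels. The named genes are the 8 members and, of the pathway list, genes with a peak in 1 library alone and those with the 3 strongest peaks per peak list. IL18RAP, CASP1, CARD16, CASP5 and the genes of the empty ligand-cluster stretch were named after their values were seen, as were neighbours of the peaks. The members and lists were chosen with earlier results of these data known. Alternatives were other windows, stricter lists, other rules for a counterpart and other scalings. Python 3.11.15, SciPy 1.17.1 and pandas 2.3.3 were used.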

Additional observations from a re-analysis of the deposited data

How the results depend on the processing

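Of 34 values under alternatives, 27 stayed within 1.5 times the reported count or within the counting interval, and 7 did not. Summits within 10 kb left 18 untreated peaks near 4 genes and 15 etoposide peaks near 5, which turns the order of genes with a peak (7 and 6 within 50 kb). Among the 10000 strongest peaks of each list there were 8 untreated and 7 etoposide peaks near the members, 4 of each shared, with 6 genes having an untreated and 2 an etoposide peak. Within 100 kb, IL33 also had peaks, and 8 and 7 genes had one. Overlap of at least 50% of both peaks left 12 shared places. Edges no more than 500 bp apart, an alternative chosen after seeing the data, gave 19 untreated and 17 etoposide peaks a counterpart. The median height ratio was 0.904 as reported and 0.918 by the authors' fold, each relative to the median of all shared places. Divided by the relative depth of 0.836 instead, it was 0.842. That is the same ratio on another scale, on which all shared places, with a median ratio of 0.778, also lie below 1. No paired analysis was possible because each condition had 1 library. Heights of 8 to 12 fragments give wide intervals, and absence from a list is not absence of binding.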

Other observations

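Some peaks lay just beyond the 50 kb limit. An etoposide peak without a counterpart was 58.6 kb from IL1A, with 6 fragments. A shared place 52.6 kb from IL1RL1 had 16 untreated and 11 etoposide fragments. The nearest peaks outside the IL1RAP window were much higher, at 1 shared place 127.7 kb from the gene with 70 untreated and 53 etoposide fragments. Past IL1RN, a shared place 106.8 kb away had 38 and 18 fragments. IL33 sat in an empty stretch of 341 kb in both libraries, which also held TPD52L3. Of intervals between summits, 4.57% of untreated and 6.37% of etoposide ones were at least as long. These too are shares of intervals, not of genes or sequence.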
